A study of Homo sapiens with 12 samples.

Results

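The protein arginine methyltransferases and WDR77, the fixed partner of PRMT5, were followed through 24 h of ADI-PEG20 in 2 human leukaemia cell lines. The members are PRMT1, PRMT2, PRMT3, CARM1, PRMT5, PRMT6, PRMT7, PRMT9 and WDR77, found by matching the Ensembl identifiers of the count table to these symbols, and they are 9 of its 60664 genes. TOM-1 is an established line of Philadelphia chromosome-positive B-cell acute lymphoblastic leukaemia, and RS4;11 is one with a KMT2A rearrangement; both are labelled wild type and lymphoblast. ADI-PEG20, arginine deiminase joined to polyethylene glycol, breaks down arginine outside the cell. The 4 groups were TOM-1 control culture, TOM-1 with 1000 ng/ml ADI-PEG20, RS4;11 control culture and RS4;11 with 1000 ng/ml ADI-PEG20, each sampled at 24 h with 3 poly(A) RNA libraries. The labels do not say whether the 3 libraries of a group came from separate cultures, so the p-values measure only the spread between these libraries, which may be technical. Each leukaemia subtype is represented by 1 line.

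Arginine methyltransferases move a methyl group from S-adenosylmethionine onto arginine side chains of histones, splicing factors and RNA-binding proteins. Type I enzymes (PRMT1, PRMT2, PRMT3, CARM1 and PRMT6) make asymmetric dimethylarginine, type II enzymes (PRMT5 and PRMT9) make symmetric dimethylarginine, and the type III enzyme PRMT7 stops at monomethylarginine. PRMT1 carries most of the asymmetric methylation in mammalian cells, and PRMT5 works as a complex with WDR77. PRMT1 and PRMT5 have both been studied in acute leukaemias as drug targets.

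Depth and identity of the libraries were examined first. Total counts ran from 18958144 to 35956959 per library. TOM-1 control library 3 stood apart from the other 11: reads fell on 14963 genes there against 19857 to 21997 elsewhere, and ribosomal protein genes took 19.77% of its counts against 9.223% and 8.959% in the other TOM-1 controls. In the 3 treated TOM-1 libraries that ribosomal share was instead low, at 6.063%, 6.014% and 5.912%, against 8.789% to 9.906% in RS4;11. It moved with the TOM-1 treatment, as did the 5 of 9 members called lower below, and its part in their change was not tested. Among the members, PRMT1 was 2.17-fold and PRMT7 1.6-fold above the mean of the other TOM-1 controls in that library, while PRMT9 was 4.1-fold and PRMT3 1.76-fold below it. Fold changes that rest on the TOM-1 controls are therefore given with it and without it. All 9 B-lineage markers examined were detected in both lines. HOXA9, HOXA10 and MEIS1, genes high in KMT2A-rearranged leukaemia, were at 0 in TOM-1 and summed to between 220 and 244 CPM (counts scaled to library size, per 1000000) in RS4;11 controls. Of 4 T-lineage genes, CD3D, CD3E and CD2 were at 0 in TOM-1 and in RS4;11 controls, while TRAC read 123 to 210 CPM in TOM-1 controls and 427 to 479 CPM in RS4;11 controls. The 5 myeloid genes summed to between 15.1 and 26.7 CPM in TOM-1 controls, mostly MPO at 10.9 to 21.0 CPM, and to between 15.7 and 20.8 CPM in RS4;11 controls, mostly CSF1R at 14.5 to 18.3 CPM. ELANE was at 0 in every group, and the summed erythroid markers did not exceed 0.496 CPM in any library. In these bulk samples, fewer cells of a type and less RNA per cell cannot be told apart.

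Under ADI-PEG20, 5 of the 9 members (PRMT1, PRMT5, WDR77, PRMT7 and CARM1) fell in TOM-1, where 15.9% of the 17349 genes tested were called lower, and 0 members were called in RS4;11, where 0% of genes were. The promoter windows of PRMT1, PRMT5 and WDR77, of which the last 2 form a complex, are shown as examples from the members that fell. Each window runs from 250 bases before to 50 bases after the RefSeq start on GRCh38.p14, printed 5′ to 3′ on the gene's strand: chr19:49677021-49677320 (+) for PRMT1, chr14:22929327-22929626 (-) for PRMT5 and chr1:111449207-111449506 (-) for WDR77. Capitals mark matches on either strand to CCAAT (read as ATTGG on the other strand), TCGCGAGA or CACGTG.
PRMT1: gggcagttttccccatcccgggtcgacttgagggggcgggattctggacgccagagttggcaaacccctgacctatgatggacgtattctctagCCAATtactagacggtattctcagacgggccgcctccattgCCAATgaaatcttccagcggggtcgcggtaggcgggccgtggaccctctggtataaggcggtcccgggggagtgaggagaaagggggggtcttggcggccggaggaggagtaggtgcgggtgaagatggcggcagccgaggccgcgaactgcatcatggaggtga
PRMT5: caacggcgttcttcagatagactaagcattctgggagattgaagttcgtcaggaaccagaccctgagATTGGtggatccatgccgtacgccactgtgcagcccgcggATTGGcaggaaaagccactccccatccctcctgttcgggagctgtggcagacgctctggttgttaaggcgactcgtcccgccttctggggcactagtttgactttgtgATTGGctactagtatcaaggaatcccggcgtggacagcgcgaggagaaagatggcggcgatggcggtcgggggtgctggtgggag
WDR77: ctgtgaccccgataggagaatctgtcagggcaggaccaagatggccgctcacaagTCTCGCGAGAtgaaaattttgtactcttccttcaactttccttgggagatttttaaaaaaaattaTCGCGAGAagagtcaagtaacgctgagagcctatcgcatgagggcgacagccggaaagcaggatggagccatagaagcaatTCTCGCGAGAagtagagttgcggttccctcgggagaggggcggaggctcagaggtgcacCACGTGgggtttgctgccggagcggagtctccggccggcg
The PRMT1 window held 2 matches to CCAAT and the PRMT5 window 3. That motif was thus in 2 of the 9 members, or in 2 of their 11 windows. Over the 35116 RefSeq windows of this length it was in 34.6%. WDR77 held TCGCGAGA at 3 separate places, with 5 matches when overlapping matches on the opposite strand are counted, against 1.15% of windows holding any. CACGTG, the canonical E-box, was in the WDR77 and PRMT3 windows and in 7.26% of all windows. TGATGNAA, the core of amino acid response elements, was in none of the 9 members' windows and in 3.62% of all. The palindromic NRF1 element was in the PRMT2 window and in 5.78% of all. The windows of CARM1 and PRMT7, which also fell, and of PRMT6 and PRMT9 held no match to any motif searched. No motif of this search was in all 3 printed windows, and a match is a description of letters only.

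PRMT1 lies at chr19:49675786-49689029 on the plus strand of GRCh38 (GENCODE 29). In TOM-1 its level was 341, 313 and 709 CPM in the 3 controls and 172, 183 and 183 CPM under ADI-PEG20. In RS4;11 it was 316, 371 and 367 CPM in controls and 321, 349 and 328 CPM under ADI-PEG20. The 3 treated TOM-1 libraries were lower than every other library of the study, whereas the RS4;11 groups overlapped. The log2 fold change in TOM-1 was -1.34 (SE 0.25, adjusted p = 0.00183), with edgeR's quasi-likelihood test and Benjamini-Hochberg adjustment over all genes tested, as for every adjusted p here. Without TOM-1 control library 3 it was smaller and tighter, at -0.87 (SE 0.07, adjusted p = 1.58e-09). In RS4;11 the log2 fold change was -0.08 with an approximate 95% interval from -0.56 to 0.40, which narrowed to between -0.20 and 0.05 without that TOM-1 library because the groups share an estimate of spread. The exons of PRMT1 overlap those of ADM5 on the same strand over 7.6% of their length, and ADM5 also fell in TOM-1 (log2 fold change -1.72, adjusted p = 0.0031; -1.55 without library 3). ADM5 had between 56 and 382 counts per library and PRMT1 between 4026 and 12851. What part of these counts came from shared exons was not tested.

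The fall of PRMT1 was larger in TOM-1 than in RS4;11. The difference between the lines' effects was -1.26 on the log2 scale (adjusted p = 0.0361) and -0.79 without TOM-1 control library 3 (adjusted p = 1.33e-06). The call on 12 libraries was kept when any TOM-1 control was left out and lost when any of the other 9 libraries was, with adjusted p up to 0.0932.

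**Figure D1:**
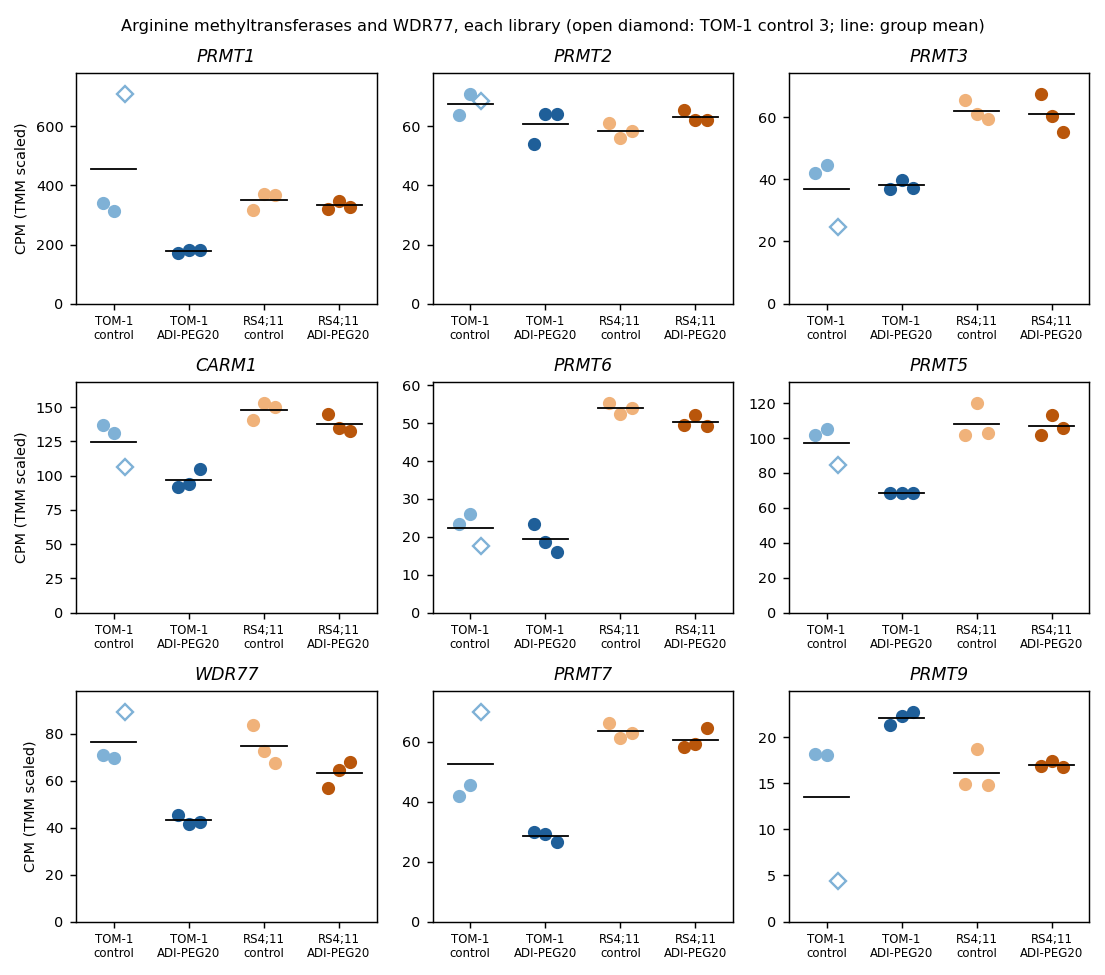
Level of each of the 9 members in each library, in CPM on linear axes that start at 0, for the 4 groups; lines are group means and the open diamond is TOM-1 control library 3. The dark blue points of treated TOM-1 lie below the TOM-1 controls for PRMT1, CARM1, PRMT5, WDR77 and PRMT7 and above them for PRMT9, and TOM-1 control library 3 reads 709 CPM for PRMT1 and 4.41 CPM for PRMT9.

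CARM1, a coactivator that methylates histone H3 and splicing regulators, lies at chr19:10871513-10923070 (+). Its TOM-1 levels were 137, 131 and 106 CPM in controls and 91.8, 93.9 and 105 CPM under ADI-PEG20, so the groups nearly touched. RS4;11 controls read 141, 153 and 150 CPM and treated libraries 145, 135 and 133 CPM. The log2 fold change of CARM1 in TOM-1 was -0.36 (SE 0.12, adjusted p = 0.038). With TOM-1 control library 3 set aside it was -0.47 (adjusted p = 1.41e-05). The call on 12 libraries was lost when TOM-1 control 1 or 2, TOM-1 ADI-PEG20 library 1 or 2, or RS4;11 ADI-PEG20 library 1 was left out, with adjusted p between 0.0503 and 0.13. It was also lost with no filter on low counts (adjusted p = 0.146) and with the 6 TOM-1 libraries alone (adjusted p = 0.124). Fitting the replicate number as a block lost the call too (adjusted p = 0.0577). YIPF2 overlaps CARM1 on the opposite strand over 19.9% of CARM1's exonic length. Its log2 fold change had the opposite sign, 0.40 (adjusted p = 0.113) on 12 libraries and 0.60 (adjusted p = 0.00101) when TOM-1 control library 3 was dropped. Reads of such partners cannot be told apart without strand, and strand use is not given in the sources used here.

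The remaining type I enzymes did not pass the test in TOM-1 on all 12 libraries. PRMT6, a nuclear enzyme that methylates histone H3, read 23.3, 26.0 and 17.5 CPM in TOM-1 controls and 23.5, 18.7 and 15.9 CPM under ADI-PEG20, groups that overlapped. Its log2 fold change was -0.21 (adjusted p = 0.399) and, without TOM-1 control library 3, -0.35 (adjusted p = 0.0265), so this library decided the call. PRMT3, a cytosolic enzyme whose known substrate is a small-subunit ribosomal protein, read 41.9, 44.5 and 24.6 CPM in controls and 37.0, 39.9 and 37.2 CPM when treated, with a log2 fold change of 0.04 (adjusted p = 0.934) that turned to -0.19 (adjusted p = 0.127) without that library. PRMT2, an SH3-domain member with weak activity, was the most even of the family. It read 63.7, 70.9 and 68.5 CPM in TOM-1 controls and 53.9, 64.2 and 64.3 CPM under treatment, and between 55.9 and 65.5 CPM in the 6 RS4;11 libraries. Its log2 fold change in TOM-1 was -0.16 (adjusted p = 0.332), or -0.15 without control library 3 (adjusted p = 0.209). PRMT2 lies at chr21:46635167-46665124 (+), PRMT3 at chr11:20387530-20509294 (+) and PRMT6 at chr1:107056679-107067636 (+), none with overlapping exons of another gene.

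PRMT5 and WDR77, the catalytic and the adaptor subunit of 1 complex, both fell in TOM-1. PRMT5 (chr14:22920511-22929585, minus strand) read 102, 105 and 84.4 CPM in TOM-1 controls and 68.7, 68.4 and 68.7 CPM under ADI-PEG20, treated values that were nearly identical to each other. WDR77 (chr1:111439890-111449376, minus strand) read 71.0, 69.7 and 89.3 CPM in controls and 45.5, 41.6 and 42.3 CPM when treated. In neither gene did treated and control TOM-1 libraries overlap. The log2 fold change of PRMT5 was -0.50 (SE 0.12, adjusted p = 0.00739), and setting TOM-1 control library 3 aside gave -0.60 (adjusted p = 1.64e-06). For WDR77 the values were -0.83 (SE 0.14, adjusted p = 0.000891) with the library and -0.71 (adjusted p = 2.64e-06) in its absence. Both calls held in each of the 12 fits that left out a library.

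In RS4;11, PRMT5 read 102, 120 and 103 CPM in controls and 102, 113 and 106 CPM under ADI-PEG20, and the log2 fold change was -0.01 with an approximate 95% interval from -0.25 to 0.22. WDR77 read 84.0, 72.9 and 67.7 CPM in controls and 57.0, 64.5 and 67.9 CPM when treated. Its log2 fold change of -0.25 was the furthest from 0 of the members in this line, with an interval from -0.51 to 0.02 and overlapping libraries. Dropping TOM-1 control library 3 gave -0.25 again, but the interval, from -0.42 to -0.08, lay below 0, and the adjusted p was 0.211. The differences between the lines' effects did not pass for PRMT5 (-0.49, adjusted p = 0.0797) or WDR77 (-0.58, adjusted p = 0.07) on 12 libraries. They passed without TOM-1 control library 3, at -0.58 (adjusted p = 0.000171) and -0.46 (adjusted p = 0.009). The antisense gene PRMT5-AS1 overlaps 27.1% of PRMT5's exonic length. It had between 0 and 24 counts per library and PRMT5 between 1529 and 3605. WDR77 shares 12.5% of its exonic length with ATP5PB on the opposite strand, and ATP5PB fell too in TOM-1 (log2 fold change -0.70, adjusted p = 0.00963; -0.42 without library 3). ATP5PB had between 3504 and 6668 counts per library, more than the 1062 to 2497 counts of WDR77. On the same strand AL390195.1 overlaps 24.0% of WDR77's exonic length and had between 0 and 22 counts. For none of these overlaps was the part of the counts that came from shared exons tested.

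PRMT9, the other type II enzyme, which methylates a splicing factor of the U2 particle, was the only member with a positive log2 fold change in TOM-1 both with and without control library 3. It lies at chr4:147637785-147684230 (-). Controls read 18.2, 18.0 and 4.41 CPM and treated libraries 21.3, 22.3 and 22.7 CPM, so every treated library was above every control. The log2 fold change was 0.70 (SE 0.37, adjusted p = 0.178), and 0.29 (adjusted p = 0.0961) without TOM-1 control library 3, and neither passed. PRMT9 had the fewest reads of the members, between 80 and 641 per library. RS4;11 levels ran from 14.8 to 18.7 CPM over all 6 libraries.

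PRMT7, the type III enzyme, lies at chr16:68310974-68358563 (+). TOM-1 controls read 41.9, 45.6 and 69.9 CPM and treated libraries 29.8, 29.2 and 26.7 CPM, without overlap. RS4;11 controls read 66.4, 61.4 and 63.0 CPM and treated libraries 58.2, 59.3 and 64.5 CPM, with overlap. The log2 fold change of PRMT7 in TOM-1 was -0.87 (SE 0.17, adjusted p = 0.00259). It came to -0.62 (adjusted p = 8.44e-06) in the absence of TOM-1 control library 3, and the call held whichever library was left out. The difference between the lines' effects was -0.81 (adjusted p = 0.0502), just short of the threshold of 0.05, and -0.55 (adjusted p = 0.00135) without that library.

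**Figure D2:**
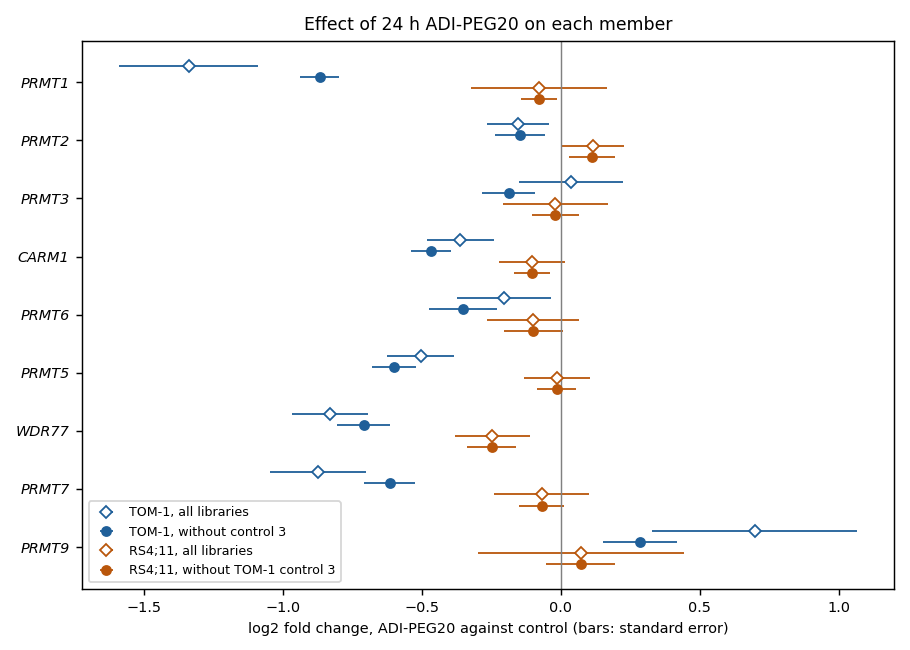
Log2 fold change of ADI-PEG20 against control for each member in TOM-1 (blue) and RS4;11 (orange), with standard errors; open diamonds use all 12 libraries and filled circles leave out TOM-1 control library 3. In TOM-1 PRMT1 moves from -1.34 to -0.87 between the fits, and all RS4;11 values lie between -0.25 and 0.11.

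Over the family, 5 of 9 members were thus called lower in TOM-1 and 0 higher, and 15.9% of all genes tested were called in each direction. Without TOM-1 control library 3 the count was 6 of 9, against 19.8% of 18321 genes. The median log2 fold change of the members was -0.36 and that of all tested genes 0.05, or -0.47 and 0.00 without the library. By libraries that do not overlap, 5 members were lower and 1 was higher, where 20.1% and 26.1% of genes were. In the absence of TOM-1 control library 3 these were 6 members lower and 1 higher, against 28% and 31%. All 9 members passed the filter on low counts.

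In RS4;11, 0 of 9 members were called, as were 0% of all genes. At an unadjusted p below 0.05 there were 0 members and 325 genes (1.87%), and DESeq2 likewise called 0 members and 0 genes. Without TOM-1 control library 3, 0 members and 0.317% of genes were called, and 1 member (WDR77) and 2207 genes (12%) had an unadjusted p below 0.05. The members' median log2 fold change was -0.07. PRMT2 libraries were all higher under treatment and PRMT6 libraries all lower, by small steps, where 7.72% of genes had all treated libraries higher and 9.05% all lower. For the difference between the lines' effects, 1 member (PRMT1) was called lower, against 6.05% of genes, and 5 (PRMT1, CARM1, PRMT5, PRMT7 and WDR77) without TOM-1 control library 3, against 14.7%. That count therefore rests on whether the library is used.

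The lines were also compared at each condition; these comparisons share libraries with those above. In control culture PRMT6 and PRMT3 were lower in TOM-1. PRMT6 read 55.3, 52.4 and 54.0 CPM in RS4;11 controls, and the TOM-1 log2 difference was -1.27 (adjusted p = 9.13e-05), or -1.13 without TOM-1 control library 3 (adjusted p = 9.05e-08). PRMT3 read 65.4, 61.0 and 59.3 CPM in RS4;11 controls, with a difference of -0.74 (adjusted p = 0.00933), or -0.52 without TOM-1 control library 3 (adjusted p = 9.23e-05). These were 2 of 9 members called lower, against 18.4% of genes, and without TOM-1 control library 3 PRMT7 joined them (-0.54, adjusted p = 3.12e-05), making 3 against 27.5%. PRMT1 was 0.37 higher in TOM-1 with that library and -0.10 without it, not called either way.

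Under ADI-PEG20, 7 of 9 members were lower in TOM-1 than in RS4;11, where 24% of genes were called lower. The differences were -1.38 for PRMT6 (adjusted p = 3.6e-05), -1.09 for PRMT7 (adjusted p = 0.000274), -0.89 for PRMT1 (adjusted p = 0.0108) and -0.68 for PRMT3 (adjusted p = 0.0105). They were -0.64 for PRMT5 (adjusted p = 0.000871), -0.55 for WDR77 (adjusted p = 0.00579) and -0.51 for CARM1 (adjusted p = 0.00433). All 7 calls held in each of the 12 fits that left out a library, and their treated libraries did not overlap between the lines, as for 34.9% of genes in that direction. PRMT2 was not called (log2 difference -0.06, approximate 95% interval from -0.28 to 0.16). PRMT9 was higher in TOM-1 by 0.38 (adjusted p = 0.434), and passed without TOM-1 control library 3 (0.37, adjusted p = 0.0103). That library is in neither group of this comparison, but leaving it out changed the shared spread, the scaling and the genes tested. In that fit 7 members were called lower and 1 higher, against 31.5% and 31.4% of genes.

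Levels were compared between members as CPM per kb of merged exon length. PRMT1 stood highest in all 4 groups, at 73.2 ± 6.45 (SD, n = 3) CPM per kb in RS4;11 controls. CARM1 (33.2 ± 1.33), PRMT5 (31.2 ± 2.88) and WDR77 (26.7 ± 2.98) followed as a middle tier, in which CARM1 and PRMT5 overlapped, as did PRMT5 and WDR77. PRMT6 at 12.4, PRMT3 at 11.3, PRMT2 at 7.29, PRMT7 at 6.72 and PRMT9 at 4.02 CPM per kb made up the lower tier, where PRMT2 and PRMT7 overlapped. In TOM-1 controls without library 3 the top of the order was alike, with PRMT1 at 68.2, CARM1 at 30.0, PRMT5 at 29.9 and WDR77 at 25.1 CPM per kb. Below it PRMT6, at 5.69, stood under PRMT2 at 8.38 and PRMT3 at 7.91. Treated TOM-1 held the same 4 genes on top at lower levels, 37.4 ± 1.31 (SD, n = 3) for PRMT1, 21.7 for CARM1, 19.8 for PRMT5 and 15.4 for WDR77.

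**Figure D3:**
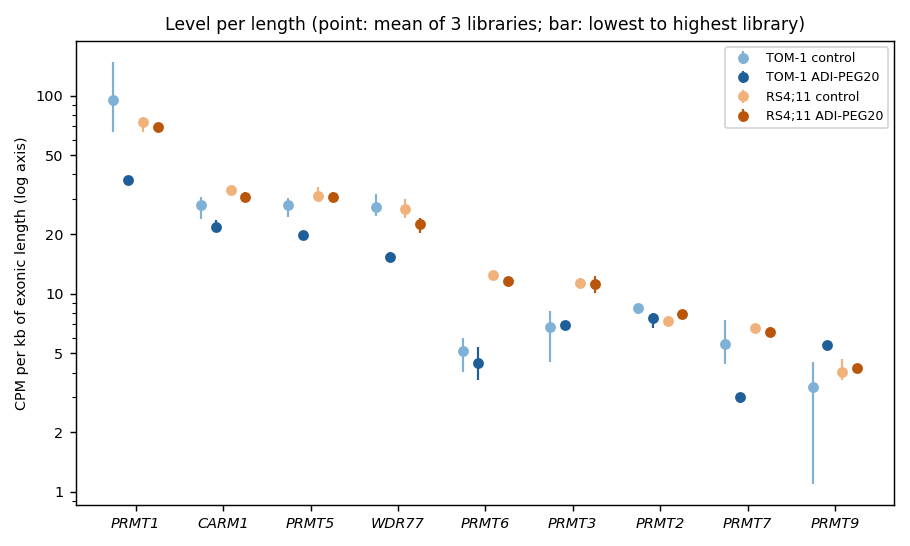
Level of each member in CPM per kb of merged exon length on a log axis, for the 4 groups; points are means of 3 libraries and bars run from the lowest to the highest library. PRMT1 is highest in every group, from 37.4 CPM per kb in treated TOM-1 to 94.8 in TOM-1 controls, whose wide bar includes control library 3.

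Summed over the 8 enzymes, the level per kb was 180.0 ± 36.0 (SD, n = 3) in TOM-1 controls (159.3 without library 3) and 106.5 ± 2.5 in treated TOM-1. It was 179.4 ± 8.88 in RS4;11 controls and 172.5 ± 4.39 in treated RS4;11. PRMT1 made up 50.8 ± 13.9% of that sum in TOM-1 controls (42.8% without library 3), 35.2 ± 0.493% in treated TOM-1, 40.8 ± 1.83% in RS4;11 controls and 40.2 ± 0.989% in treated RS4;11. The ratio of PRMT5 to WDR77 per kb was 1.05 ± 0.25 in TOM-1 controls (1.19 without library 3) and 1.29 ± 0.0586 in treated TOM-1. In RS4;11 it was 1.18 ± 0.181 in controls and 1.38 ± 0.0929 when treated. These sums and ratios are descriptions without a test, and merged exon length counts exons that a cell may not use.

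By root mean square distance of centred log2 levels over 12 libraries, among 10554 genes, the patterns closest to PRMT1 were RPL23A (0.084), PFDN6 (0.086) and OST4 (0.089), where the median gene was at 0.718. Without TOM-1 control library 3 they were GAPDH (0.060), GIT1 (0.067) and ZNF574 (0.075), so none of the first 3 stayed. For PRMT5 they were WDCP (0.074), METAP2 (0.085) and SLC20A1 (0.086), and without the library DAXX (0.056), WAS (0.056) and AKT2 (0.062).

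The genes around the enzymes were read from 9 lists holding 52 genes, of which 48 passed the filter on low counts. The lists were chosen with earlier results of these data known, so their counts are descriptions only. In RS4;11 no gene of any list was called, with or without TOM-1 control library 3. The counts that follow are for TOM-1 under ADI-PEG20 and stand beside 15.9% of all genes called higher and 15.9% called lower, or 21.8% and 19.8% without that library.

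Among the PRMT5 adaptors, which choose its substrates, CLNS1A and RIOK1 moved in opposite directions. CLNS1A, which brings Sm proteins to PRMT5, read 124, 120 and 210 CPM in controls and 83.3, 79.7 and 70.0 CPM under treatment, and fell by 0.96 on the log2 scale (adjusted p = 0.00309). RIOK1, which competes with CLNS1A for the same site on PRMT5, read 46.0, 42.9 and 48.0 CPM in controls and 56.7, 61.3 and 62.1 CPM when treated. RIOK1 rose by 0.40 (adjusted p = 0.0111), a call lost on dropping TOM-1 control 2 or TOM-1 ADI-PEG20 library 2 or 3 (adjusted p up to 0.0742). Without TOM-1 control library 3 the changes were -0.65 for CLNS1A and 0.43 for RIOK1, both called. COPRS, a histone-directed adaptor, was called lower on 12 libraries (-0.84, adjusted p = 0.0458), but not without TOM-1 control library 3 (-0.28, adjusted p = 0.0769), where COPRS read 63.0 CPM against 25.5 and 25.8 in the other controls. The COPRS call was kept only on dropping TOM-1 control 1 or 2 (adjusted p up to 0.136 in the other fits).

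Both BTG-family partners of PRMT1 rose. BTG1, an antiproliferative protein that binds PRMT1, read 82.8, 78.0 and 111 CPM in TOM-1 controls and 334, 329 and 324 CPM under ADI-PEG20, which is 1.86 on the log2 scale (adjusted p = 4.49e-06), or 2.03 without TOM-1 control library 3. In RS4;11 it read between 69.4 and 76.2 CPM in all 6 libraries. BTG2 rose by 0.54 (adjusted p = 0.0127), or 0.44 without library 3, a call lost on dropping TOM-1 ADI-PEG20 library 2 or 3 (adjusted p up to 0.0574). PRMT1 and BTG1 thus went opposite ways in the same treated libraries.

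The S-adenosylmethionine cycle makes the methyl donor and clears its product. Of 9 genes, 2 rose and 2 fell, or 2 and 3 without TOM-1 control library 3. MAT2A, which makes S-adenosylmethionine, read 411 and 427 CPM in TOM-1 controls 1 and 2, 155 CPM in control 3, and 141, 145 and 153 CPM under treatment. Control library 3 thus sat close to the treated libraries for this gene. MAT2A fell by 1.18 (adjusted p = 0.00762), or 1.52 in the absence of library 3 (adjusted p = 1.58e-13). AHCY, which removes S-adenosylhomocysteine, the product that inhibits methyltransferases, read 300, 319 and 418 CPM in controls and 112, 96.3 and 101 CPM when treated, and fell by 1.74 (adjusted p = 6.48e-06), or 1.58 without library 3. The related AHCYL1 rose by 0.78 (adjusted p = 0.00615), or 0.56 without library 3. AHCYL2 rose by 1.13 (adjusted p = 0.0256), or 0.74 without library 3, a call on 12 libraries that was lost on dropping any of the 3 treated TOM-1 libraries (adjusted p up to 0.0741).

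**Figure D4:**
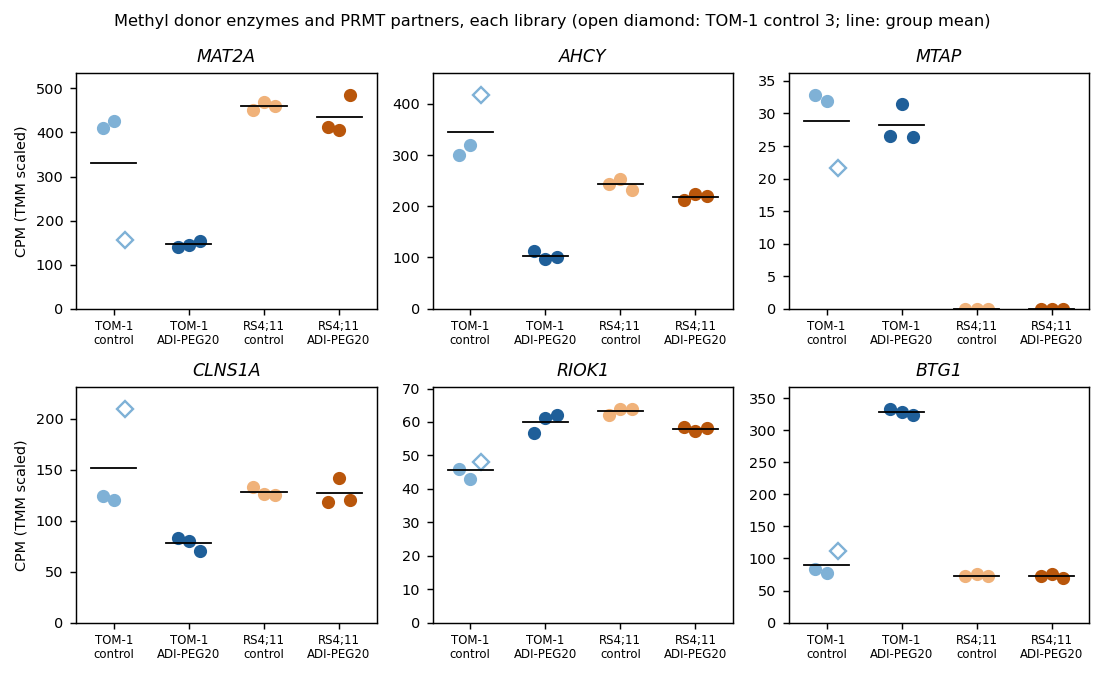
Level in each library, in CPM on linear axes that start at 0, of the methyl donor genes MAT2A and AHCY, of MTAP, of the PRMT5 adaptors CLNS1A and RIOK1 and of the PRMT1 partner BTG1; the open diamond is TOM-1 control library 3 and lines are group means. Treated TOM-1 reads 324 to 334 CPM for BTG1, above every other library, and MTAP is at 0 in all 6 RS4;11 libraries.

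MTAP, which salvages methylthioadenosine, a metabolite that inhibits PRMT5 when it builds up, separated the lines. It lies at chr9:21802543-21937651 (+). TOM-1 controls read 32.9, 31.9 and 21.6 CPM and treated libraries 26.6, 31.5 and 26.4 CPM. All 6 RS4;11 libraries had 0 counts. Against a floor of 3 counts per library, MTAP was at least 218-fold higher in TOM-1 controls (246-fold without library 3) and at least 202-fold higher in treated TOM-1. PRMT5 itself was not called between the control cultures (log2 difference -0.15, adjusted p = 0.37, interval from -0.39 to 0.08; -0.06 without library 3).

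MTAP did not stand alone in this, a look at its neighbours taken after its values were seen. Among genes with at least 100 summed counts in either line, 13 consecutive genes on chromosome 9, from MLLT3 starting at 20341665 to the end of CDKN2B-AS1 at 22121097, had 0 counts in all RS4;11 libraries. They span 1779 kb, 10 of them are protein-coding, and they include FOCAD, HACD4, KLHL9, CDKN2A and CDKN2B. Mean TOM-1 levels were 16.0 CPM for FOCAD, 30.4 for HACD4 and 58.2 for KLHL9, but 1.42 for CDKN2A and 0.755 for CDKN2B. For CDKN2A, CDKN2B, IFNB1, IFNW1, IFNA21 and IFNWP9 the lowest TOM-1 library was also at 0 counts, so their 0 in RS4;11 says less. The nearest genes on either side that met the same minimum had RS4;11 reads, 272 for ENSG00000260912 and 4924 for CAAP1. Over the genome, 201 of 14013 genes with that many TOM-1 counts were at 0 in RS4;11, or 1.43%. DNA was not measured here.

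The RNA of substrate genes of 3 enzymes was read next. Neither the proteins nor their methylation were measured here. All 4 Sm and LSm genes, whose spliceosomal proteins PRMT5 methylates, were called lower, also without TOM-1 control library 3, where their median log2 fold change went from -1.21 to -0.57. SNRPD3 read 130, 139 and 221 CPM in controls and 59.5, 69.2 and 65.8 CPM when treated (-1.33, adjusted p = 0.000249), or -1.05 without library 3. SNRPB read 250, 257 and 681 CPM in controls and 168, 163 and 163 CPM when treated (-1.27, adjusted p = 0.00801), or -0.63 without library 3. Library 3 was the highest control for both genes.

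Of 14 PRMT1 substrates with RGG motifs, 11 fell and none rose, or 12 fell and 1 rose without TOM-1 control library 3. The median log2 fold change was -0.64 in both. HNRNPA1, a splicing regulator, read 2810, 2810 and 3610 CPM in controls and 956, 964 and 914 CPM under treatment, a fall of 1.70 (adjusted p = 4.92e-06), or 1.58 without library 3. FBL, the nucleolar methyltransferase fibrillarin, read 163, 161 and 414 CPM and then 83.7, 91.2 and 83.5 CPM, a fall of 1.51 (adjusted p = 0.00234) that was 0.91 without library 3. CIRBP, a cold-inducible RNA-binding protein, was the riser at 0.34 (adjusted p = 0.000938) without the library and -0.02 (adjusted p = 0.977) with it.

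Of 7 CARM1 substrates, 4 were called higher and 1 lower, or 4 and 3 without TOM-1 control library 3; no difference between the lists was tested. NCOA3, a nuclear receptor coactivator, read 74.0, 72.1 and 24.6 CPM in controls and 143, 146 and 147 CPM when treated, a rise of 1.35 (adjusted p = 0.00516), or 0.99 without library 3. EP300, a histone acetyltransferase, rose by 1.31 (adjusted p = 0.0467), or 0.84 in the absence of library 3 (adjusted p = 3.94e-08). The EP300 call on 12 libraries did not survive dropping any of the 9 libraries that are not TOM-1 controls (adjusted p up to 0.109). PABPC1, the poly(A)-binding protein, read 4000, 3900 and 3190 CPM in controls and 2330, 2300 and 2240 CPM when treated, a fall of 0.69 (adjusted p = 0.000643), or 0.79 without library 3.

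Of the 5 readers of methylarginine, SPIN1 was called higher on 12 libraries (0.82, adjusted p = 0.0313) and none lower. Setting TOM-1 control library 3 aside, SPIN1 (0.50) and SMN1 (0.36, adjusted p = 0.0356) were called higher and SND1 (-0.19, adjusted p = 0.0364) lower. The SPIN1 call did not survive dropping any of the 3 treated TOM-1 libraries, RS4;11 control 2 or 3, or RS4;11 ADI-PEG20 library 2 or 3 (adjusted p up to 0.0992). SMN1 and SMN2 are near-identical copies whose reads cannot be assigned with certainty. Among the other arginine methylation enzymes, the mitochondrial NDUFAF7 fell by 0.49 (adjusted p = 0.0295), a call lost without TOM-1 control 1 or TOM-1 ADI-PEG20 library 2 or 3 (adjusted p up to 0.116). In the fit that omits TOM-1 control library 3, NDUFAF7 was called lower (-0.55, adjusted p = 0.00461) and METTL23, a histone arginine methyltransferase, higher (0.50, adjusted p = 0.00401), where on 12 libraries METTL23 was not called (0.36, adjusted p = 0.123). The brain-enriched PRMT8 had 0 counts in all 12 libraries. Of 5 genes for release and removal of methylarginine, 2 passed the filter, with 0 called on 12 libraries and 1, higher, without TOM-1 control library 3.

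**Figure D5:**
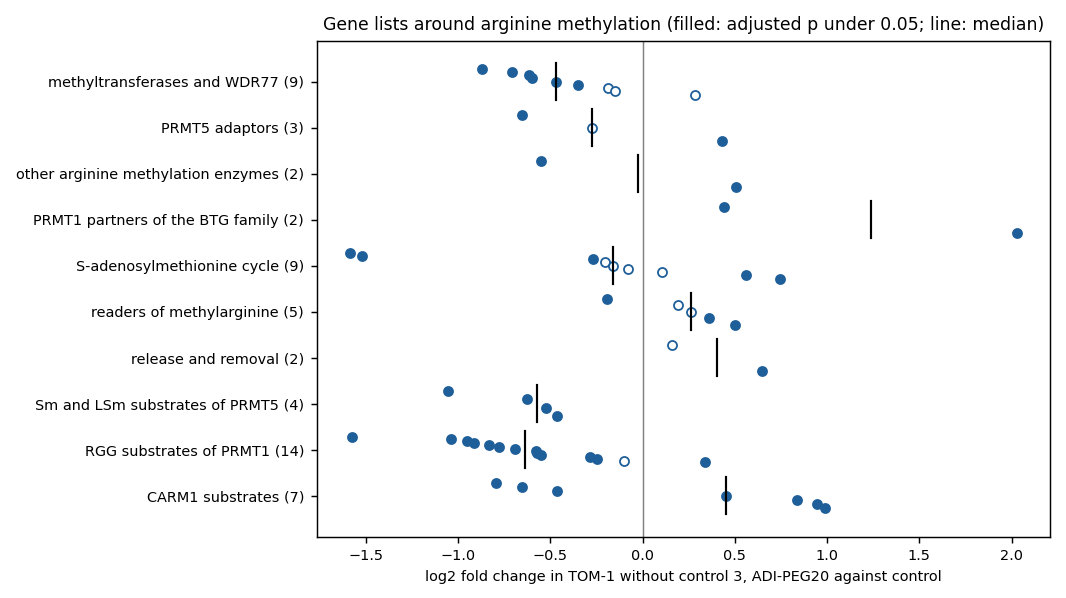
Log2 fold change of ADI-PEG20 against control in TOM-1 without control library 3, for the members and the 9 lists around them; each point is a gene, filled points have an adjusted p under 0.05, lines are medians, and the number of tested genes stands in brackets. The Sm and LSm genes and most RGG substrates lie left of 0, with medians of -0.57 and -0.64, and BTG1 lies furthest right at 2.03.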

How the data were processed

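The authors deposited a table of whole-number read counts per Ensembl gene for 12 libraries. Per the labels' protocols, total RNA was column-purified and captured by poly(A) tail. Per the submitters' processing notes, STAR, SAMtools, featureCounts and hg38 were used; versions, annotation and strand use are not given in the sources used here. The deposited counts were tested with edgeR 4.0.16 in R 4.3.3: TMM normalization, filterByExpr, a quasi-likelihood fit of 4 group means over 12 libraries, and Benjamini-Hochberg adjustment over all genes tested, threshold 0.05. CPM are the counts divided by TMM-scaled library size, per 1000000. Log2 fold changes come from the fit, their SE from the fold change and its F statistic, and approximate 95% intervals from the SE. The intervals use normal quantiles, so they are narrower than the quasi-likelihood test would give. Alternatives were DESeq2 1.42.0, other size factors, other filters, a replicate block, fits of 6 libraries, and leaving out each library. The fit was tested on simulated data. Of 60664 identifiers, 60463 matched a symbol and 58396 GENCODE 29. All 9 members are named; from each list at most 2 genes per direction and comparison with the largest called change are named, apart from genes named as overlaps, as neighbours or as changing between fits. Members and lists were chosen with earlier results of these data known.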

Additional observations from a re-analysis of the deposited data

Results flagged for a closer look

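The following genes changed under ADI-PEG20 by amounts that differed between TOM-1 and RS4;11 by a test of the difference itself (edgeR, adjusted over all genes tested); values are TOM-1 minus RS4;11 on the log2 scale. On all 12 libraries these were PRMT1 (-1.261), CLNS1A (-0.946), AHCY (-1.589), SNRPD3 (-1.233), HNRNPA1 (-1.753), FBL (-1.378) and PABPC1 (-0.723), lower in TOM-1, and RIOK1 (0.522), BTG1 (1.877) and CREBBP (1.199), higher. Calls for BTG1, AHCY, SNRPD3, HNRNPA1 and PABPC1 held in each of 12 fits without a library. Those for PRMT1, CLNS1A, FBL and CREBBP held in the 3 fits without a TOM-1 control and were lost in the others, and that for RIOK1 held in the fit without TOM-1 control library 3 alone. Without that library 5 members differed: PRMT1 (-0.789), CARM1 (-0.364), PRMT5 (-0.585), PRMT7 (-0.547) and WDR77 (-0.460).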

How the results depend on the processing

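In TOM-1 the number of members called was between 4 and 6 of 9 over the alternatives, PRMT1, PRMT5, PRMT7 and WDR77 being called in all 12 fits without a library; 2639 genes in all were called with the 6 libraries alone, against 5527. In RS4;11 no member was called, and 3 genes with 6 libraries and 58 without TOM-1 control library 3, against 0. For the difference between lines, 1 member became 2 with DESeq2 size factors, 3 with upper-quartile factors, 2 with a filter on a mean of 10 counts, 4 with DESeq2's Wald test, and 0 to 5 when a library was left out; 2072 genes became 3228 with DESeq2 and 1169 to 5567 with a library left out. Between control cultures 1 member was called with 6 libraries, against 2, and 3548 genes, or 4731 to 9681 with a library left out, against 6014. Uncalled values that changed sign were PRMT3 in TOM-1 (-0.029 with upper-quartile factors, -0.187 to 0.147 with a library left out), PRMT3 in RS4;11 (-0.092 to 0.050), PRMT5 in RS4;11 (0.001 with upper-quartile factors, -0.057 to 0.066) and, in the difference, PRMT3 (-0.024 with upper-quartile factors, -0.168 to 0.167). Between control cultures they were PRMT1 (-0.104 to 0.540, the former without TOM-1 control library 3), PRMT9 (-0.557 to 0.160) and WDR77 (-0.094 to 0.117). The cause was not tested. The labels do not say whether replicate numbers pair the samples. Correlations of same-numbered libraries ran from -0.0623 to -0.0123 in TOM-1 and 0.0307 to 0.145 in RS4;11. In RS4;11 5 of 6 libraries correlated best with their own number, a hint from the data, and in TOM-1 0 of 6 did. With the replicate block 4 members were called in TOM-1, CARM1 being lost (adjusted p = 0.0577), 0 in RS4;11, 1 in the difference, 2 between control cultures and 7 under ADI-PEG20; in all, 5324, 0, 1939, 5647 and 7964 genes were. PRMT9 had the fewest counts of the members, 80 in TOM-1 control library 3; its SE in TOM-1 was 0.370 with that library and 0.134 without it.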
